A study of Mus musculus with 24 samples.

Results

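The daily rhythms described here are those of whole eyes from male CBA/N mice, an inbred strain, kept for 4 weeks under long warm days (LW; 16 h light and 8 h dark at 27 °C) from 10 weeks of age. The 12 LW libraries were chosen by their labels out of 24, with 2 eyes collected every 4 h from 2 h to 22 h after midnight. The other 12 libraries came from mice of the same strain, sex and age kept for 4 weeks under short cool days (SC; 8 h light and 16 h dark at 10 °C) and sampled at the same 6 times. Under LW the lights were off at 2 and 22 h and on at the 4 other times, and under SC they were on at 10 and 14 h alone. All mice lived in a light-dark cycle, so a direct response to light and a rhythm of the clock cannot be told apart here, nor can photoperiod and temperature. Whether the pair of eyes at a time belonged to 1 mouse or to 2 is not given in the sources used here, and the p-values therefore cover only the spread among these eyes.

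The molecular clock of mammals is a feedback loop in which the activators CLOCK and BMAL1 (the product of Arntl), or NPAS2 in place of CLOCK, bind E-boxes and turn on the Per and Cry genes, whose proteins then repress the activators. A second loop runs through the REV-ERB repressors (Nr1d1 and Nr1d2) and the ROR activators, and the PAR bZIP factors DBP, TEF and HLF carry the rhythm to genes with D-boxes. In the eye, light and the clock together set the daily shedding of photoreceptor outer segments, the dark release of melatonin and the light-driven release of dopamine. Rods use most energy in darkness, when the current that keeps them depolarised flows.

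The expected counts of the 12 LW libraries summed to between 19543401 and 28859071 (median 25057540), against between 20164885 and 28447184 (median 24449062) for the SC libraries. Scaling factors by TMM (trimmed mean of M values) lay between 0.982 and 1.02. Genes that define the tissues of the eye were high in every LW library, as shown by Gnat1 of rods (173800 to 196700), Rpe65 of the retinal pigment epithelium (2424 to 4565), Cryaa of the lens (355900 to 410400) and Krt12 of the cornea (85210 to 122600). The eyes also held extraocular muscle (Ckm, 4716 to 7724). Alb, which encodes serum albumin and marks liver RNA, was at most 1.91 under LW, against up to 1796 under SC. All of these values, and those of genes below, are expected counts scaled to a common library size. In whole eyes, fewer cells of a type and less RNA per cell cannot be told apart.

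For each gene a cosine curve with a period of 24 h was fitted to log2(scaled count + 1) of the 12 eyes. Its amplitude is the distance from the mean to the peak on the log2 scale, and its peak time is given in h after midnight. Of 17796 genes tested, 831 (4.67%) had a 24 h rhythm at an adjusted p (Benjamini-Hochberg, limma) under 0.05, and 3452 had an unadjusted p under 0.05. The rhythms were shallow. The median amplitude of the 831 genes was 0.26, or 1.43-fold between trough and peak, beside 0.11 over all genes tested, and the amplitudes ran from 0.10 to 1.73. A change from trough to peak of at least 1.5-fold was seen in 338 genes, of at least 2-fold in 133 and of at least 4-fold in 24. Fitted peaks gathered at 2 times of day. The peak was nearest 14 h for 246 genes (1.38% of those tested) and nearest 2 h for 192 (1.08%), whereas 76 (0.427%), 114 (0.641%), 82 (0.461%) and 121 (0.68%) genes peaked nearest 6, 10, 18 and 22 h. The few genes that peaked nearest 6 h had the largest median amplitude of the 6 classes (0.44, against 0.24 to 0.27 in the others). The number of calls depended on the 2 h eyes: 425 and 455 genes were called without 1 or the other of them, and 158 without both. The classes of 2 and 14 h lie 12 h apart, so eyes that stand out at 2 h, low or high, bear on both. The share of the 2 h eyes in the gathering of peaks was not tested. With the mean of the 2 eyes at each time as a single value, which leaves 3 residual degrees of freedom, 8 genes were called.

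Called clock activators peaked between 23.5 and 4.87 h and called repressors and PAR bZIP genes between 13.3 and 19.4 h, with no called peak in the morning hours between these ranges. Of 7 activators 3 passed the test, of 10 repressors 5, and of 4 PAR bZIP factors 2, beside 4.67% of all genes. Among the activators, Npas2, a partner of BMAL1, had the largest amplitude, with 219.5 and 225 at 2 h, 273 and 309.7 at 6 h, 271 and 234 at 10 h, 107 and 111 at 14 h, 136 and 115 at 18 h and 180.1 and 215 at 22 h (amplitude 0.66 ± 0.094, peak at 4.87 ± 0.543 h (SE), adjusted p = 0.00201). All 4 eyes at 6 and 10 h lay above all 4 eyes at 14 and 18 h. Rorb, the retinal ROR gene, had 6759 and 6885 at 2 h, 3035 and 3199 at 10 h and 5197 and 5053 at 18 h (amplitude 0.43 ± 0.079, peak at 23.5 ± 0.702 h (SE), adjusted p = 0.0204). Its 2 h eyes were the highest and its 10 h eyes the lowest. Clock itself, with 2298 and 2055 at 2 h and 1600 and 1930 at 18 h, and Arntl, with 1925 and 2041 at 2 h and 1521 and 1597 at 18 h, did not pass the test (adjusted p = 0.144 and 0.121 from limma). With time entered as 6 unordered means, Arntl did pass it (adjusted p = 0.00425). Npas2 stayed called whichever of the 12 eyes was left out, and Rorb was lost in 3 of the 12 cases (adjusted p up to 0.0672).

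The repressors peaked later, from midday to evening, in the order Nr1d1 (13.3 h), Bhlhe40 (14.1 h), Ciart (15.3 h), Per3 (19.3 h) and Per2 (19.4 h). The SE of these peaks was 0.596, 0.571, 0.810, 0.905 and 0.387 h, so that neighbours within the first 3 and within the last 2 do not differ beyond their error. Per2, a core repressor of the loop, had 1111 and 1128 at 2 h, 967 and 1001 at 6 h, 1058 and 1077 at 10 h, 1219 and 1153 at 14 h, 1725 and 1662 at 18 h and 1560 and 1584 at 22 h (amplitude 0.39 ± 0.040, peak at 19.4 ± 0.387 h (SE), adjusted p = 1.4e-04). Its 4 eyes at 18 and 22 h were separate from the other 8. Nr1d1, which encodes REV-ERB alpha, had 4786 and 5140 at 2 h, 4490 and 5119 at 6 h, 6449 and 6505 at 10 h, 6439 and 6607 at 14 h, 5814 and 5615 at 18 h and 5210 and 4637 at 22 h (amplitude 0.24 ± 0.038, peak at 13.3 ± 0.596 h (SE), adjusted p = 0.00346). Per1, Cry1, Cry2, Bhlhe41 and Nr1d2 did not pass the 24 h test. Per1 stood at 3177 and 3725 at 22 h, above all 10 eyes of the other times, and its curve departed from a 24 h cosine, with an adjusted p of 0.00444 for the 12 h component described further on. Cry1 likewise had a 12 h component (adjusted p = 0.018, limma) and differed with time as 6 means (adjusted p = 0.0086). Of the 10 repressors 7 differed with time as 6 means, beside 14.4% of all genes. Of the PAR bZIP genes, Dbp peaked at 15.0 ± 0.565 h and Tef at 18.6 ± 0.598 h (SE). Dbp had 2887 and 2836 at 2 h, 3277 and 3259 at 6 h, 3417 and 3151 at 10 h, 4307 and 4347 at 14 h, 4360 and 4167 at 18 h and 3104 and 2973 at 22 h, and its 4 eyes at 14 and 18 h were the highest. Hlf and Nfil3, whose product competes for the same D-box, were not called (adjusted p = 0.475 and 0.962). Leaving out single eyes ended the call of Per3 in 10 of 12 cases (adjusted p up to 0.128) and of Ciart in 5 (up to 0.104), and of none of the other 5 called genes of this paragraph.

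**Figure D1:**
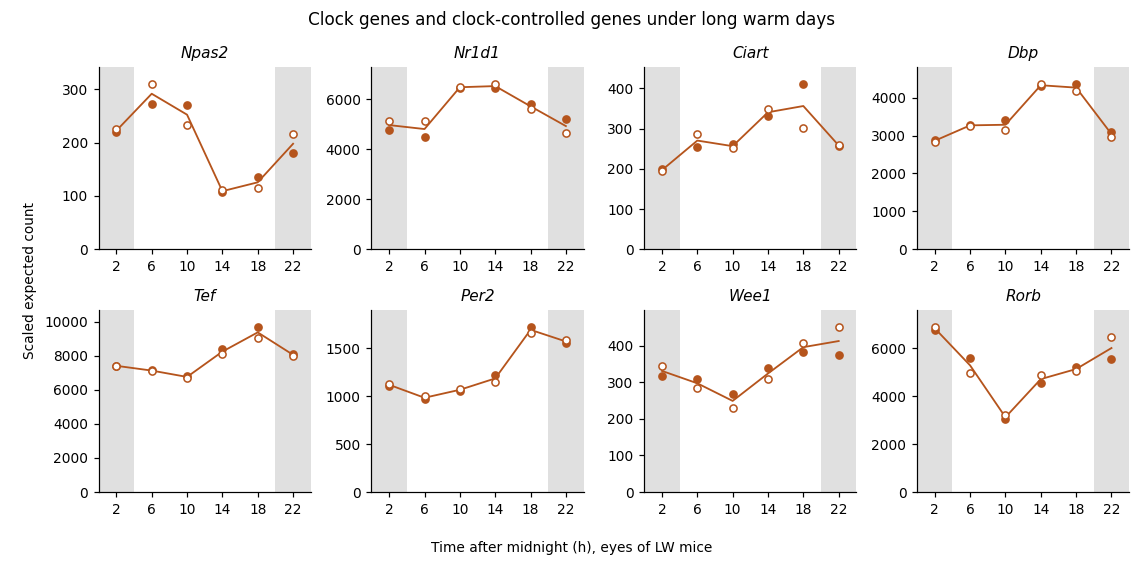
Scaled expected count (vertical axes, from 0) against time after midnight in h for 8 clock genes and clock-controlled genes in LW eyes; filled and open points are the 2 eyes of each time, the line joins their means, and grey marks the hours nearest to the dark samples at 2 and 22 h. Npas2 was highest at 6 h, Nr1d1 at 14 h, Per2 at 18 h (1725 and 1662) and Rorb at 2 h (6759 and 6885).

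E-boxes and D-boxes were looked for in the promoters of the clock genes. In the RefSeq table for build GRCm38.p6, 18 of the 21 tested members of the 3 clock lists had a promoter (250 bases before to 50 after the start). The E-box CACGTG, which reads the same on both strands, was found in 8.86% of the 17516 promoters of tested genes, and the D-box, searched as TTATGTAA or TTATGCAA on both strands, in 1.38%. Among the called members, Ciart and Tef held E-boxes and Per3 held D-boxes. Of the members that were not called, Bhlhe41, Cry1 and Per1 held an E-box, and Per1 also a D-box. No E-box match overlapped a D-box match in these genes. These stretches lie before the start of each gene and are printed 5′ to 3′ on the strand of the gene, with the matched E-boxes of Ciart and Tef and the D-boxes of Per3 in capitals. They are shown because these 3 are the called clock genes with either motif.
Ciart, chr3:95882254-95882363, minus strand: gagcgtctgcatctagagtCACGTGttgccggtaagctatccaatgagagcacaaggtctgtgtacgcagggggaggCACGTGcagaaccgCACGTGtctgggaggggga
Tef, chr15:81802516-81802565, plus strand: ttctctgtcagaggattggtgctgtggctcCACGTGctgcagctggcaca
Per3, chr4:151044801-151044889, minus strand: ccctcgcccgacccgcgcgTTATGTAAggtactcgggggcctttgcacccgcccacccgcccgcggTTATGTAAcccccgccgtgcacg
The first E-box of Ciart began 116 bases before the start, and the D-boxes of Per3 at 205 and 158 bases. Tef has more than 1 start in the table, and the upstream one is shown. The 2 genes with E-boxes shown here peaked at 15.3 h (Ciart) and 18.6 h (Tef), and Per3 with its D-boxes at 19.3 h. A match is a description of these letters and not of binding. Shares of motifs by peak time are not given. Of the 831 rhythmic genes 643 (77.4%) had a promoter in the table, as had 13901 of the 17796 tested genes.

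Genes known to follow the clock in many tissues were rhythmic too, with 5 of 6 called (83.3%, beside 4.67% of all genes). All 5 peaked between 18.1 and 0.977 h, from evening into the night. Por (the electron donor of cytochromes P450, 18.1 h), Tspan4 (18.4 h), Tsc22d3 (20.4 h), Wee1 (a kinase that holds back mitosis, 20.7 h) and Lonrf3 (0.977 h) passed the test, whereas Usp2 did not (adjusted p = 0.397). Lonrf3 kept its call in 2 of the 12 cases in which 1 eye was left out (adjusted p up to 0.173), and the 4 others in all 12. Tsc22d3, which encodes the glucocorticoid-induced protein GILZ, had 926 and 1104 at 2 h, 855 and 791 at 6 h, 972 and 849 at 10 h, 1112 and 899 at 14 h, 1236 and 1202 at 18 h and 1505 and 1549 at 22 h (amplitude 0.38 ± 0.058, peak at 20.4 ± 0.582 h (SE), adjusted p = 0.00346). Of 10 genes that respond to glucocorticoids 5 passed (50%, beside 4.67% of all genes), but not with a common phase. Ddit4, Sgk1 and Tsc22d3 peaked at 23.7, 0.702 and 20.4 h, and the metallothionein genes Mt1 and Mt2 at 10.8 and 10.6 h. With time as 6 means all 10 differed, beside 14.4% of all genes. The 12 h component described further on was called in 7, beside 6.34%. Mt1 reached 2291 and 2665 at 10 h, above the other 10 eyes (at most 2124). None of the 7 tested modifiers of clock proteins, such as Csnk1d, was called, nor had any an unadjusted p under 0.05 (the lowest adjusted p was 0.259, Gsk3b). With time as 6 means 3 of the 7 differed, beside 14.4% of all genes. Where 4.67% of all genes were called, 0 of 7 by the 24 h test is no result about the modifiers.

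Among the photoreceptor genes that passed the 24 h test, some peaked at night and others in the day, while most members of each list did not pass this test. Of 6 tested genes of cAMP and melatonin signalling in photoreceptors 2 were called (33.3%, beside 4.67% of all genes), Drd4 and Adcy1. Drd4, the D4 dopamine receptor of photoreceptors (chromosome 7, 141291974 to 141296464, GRCm38.p6), had 5634 and 5446 at 2 h, 2641 and 2767 at 6 h, 1759 and 1741 at 10 h, 1745 and 1762 at 14 h, 1702 and 1582 at 18 h and 4691 and 4769 at 22 h (amplitude 0.93 ± 0.11, peak at 1.15 ± 0.460 h (SE), adjusted p = 0.00311). Its 4 dark eyes lay above all others, and the 6 eyes at 10, 14 and 18 h were within 1582 to 1762. Adcy1, the calcium-stimulated adenylyl cyclase that acts downstream, ran the other way, with 5802 and 5958 at 2 h and 11410 and 10850 at 10 h (amplitude 0.45 ± 0.082, peak at 15.4 ± 0.697 h (SE), adjusted p = 0.0214). Drd4 was called whichever eye was left out and Adcy1 in 9 of 12 cases (adjusted p up to 0.0694). The melatonin gene Asmt was near its floor, at 0 in 4 of 12 eyes and at most 4.44.

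Of 24 rod phototransduction genes 8 passed the test (33.3%, beside 4.67% of all genes). The fitted peak of 6 of them was nearest 14 h (1.38% of all genes). Rcvrn, which encodes recoverin, a calcium sensor of photoreceptors, peaked in the night, at 3.11 h (adjusted p = 0.00518). The day group held Sag, the rod arrestin (peak 14.6 h), both guanylate cyclase activators Guca1a (13.1 h) and Guca1b (13.8 h), the transducin gamma subunit Gngt1 (13.7 h) and the channel subunits Cnga1 (12.2 h) and Cngb1 (13.4 h). Sag had 29400 and 28660 at 2 h, 39630 and 44060 at 6 h, 69340 and 67770 at 10 h, 61870 and 71290 at 14 h, 63300 and 59110 at 18 h and 56430 and 59420 at 22 h (amplitude 0.54 ± 0.10, adjusted p = 0.0293 from limma). The 2 h eyes were lowest, the 6 h eyes were between, and from 10 h on all 8 eyes lay between 56430 and 71290, so the level at 22 h, in darkness, was still close to that at 18 h. Guca1b was also lowest at 2 h, with 10840 and 10410 at 2 h, 24630 and 24890 at 10 h and 18350 and 16980 at 22 h. Rcvrn and Guca1a kept their calls whichever eye was left out. Sag, Cnga1 and Cngb1 kept theirs in 5, 5 and 3 of the 12 cases (adjusted p up to 0.0902, 0.119 and 0.156), and the number of rod genes called ranged between 3 and 8 of 24, with 1 called when both 2 h eyes were left out.

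Among 13 cone genes 3 were called (23.1%, beside 4.67% of all genes), and 5 differed with time as 6 means (14.4% of all genes did). Arr3, the cone arrestin (chromosome X, 100605480 to 100618493), had the smallest p of all 17796 genes, with 3269 and 3050 at 2 h, 2841 and 2916 at 6 h, 4224 and 4495 at 10 h, 5704 and 6263 at 14 h, 6162 and 6211 at 18 h and 5073 and 4871 at 22 h (amplitude 0.59 ± 0.034, peak at 16.6 ± 0.218 h (SE), adjusted p = 1.6e-07; limma). The eyes at 14 and 18 h were the highest 4 and those at 2 and 6 h the lowest 4, with no overlap. Opn1sw, the short-wavelength opsin, and Gnb3, the beta subunit of cone transducin, peaked at night (3.55 ± 0.638 h and 1.83 ± 0.743 h, SE) with small amplitudes of 0.18 and 0.14. Opn1mw, the middle-wavelength opsin, was not called, with 1185 and 1173 at 2 h and 1107 and 1207 at 14 h (adjusted p = 0.554). Of 5 dopamine receptors Drd4 alone was called. None of the 5 tested nonvisual opsins was called by limma, with 1 at an unadjusted p under 0.05 and 0 with time as 6 means. Beside 4.67% of all genes, neither count is a result about its list. Opn4, the melanopsin of ganglion cells, lay between 89.3 and 159.7, and Opn5 at most at 5.32.

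**Figure D2:**
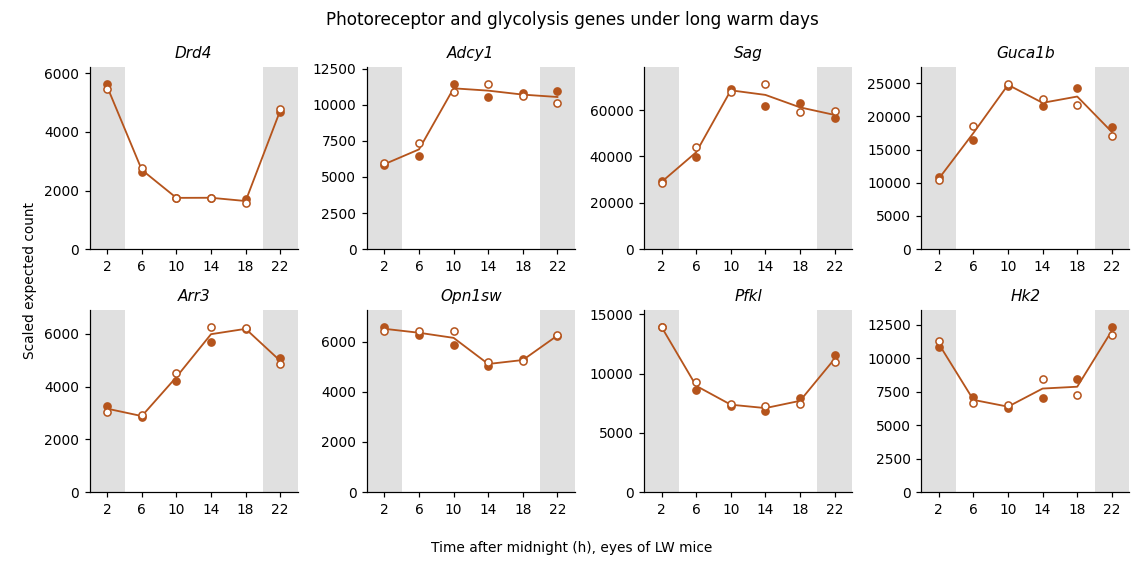
Scaled expected count (vertical axes, from 0) against time after midnight in h for 6 photoreceptor genes and the glycolysis genes Pfkl and Hk2 in LW eyes; filled and open points are the 2 eyes of each time, the line joins their means, and grey marks the hours nearest to the dark samples. Drd4 and Pfkl were highest at 2 h (5634 and 5446, and 13940 and 13900), Sag and Guca1b were lowest there, and Arr3 was highest in the afternoon.

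In the pathways around the photoreceptors, 3 of 14 visual cycle genes were called (21.4%, beside 4.67% of all genes). Rpe65, the isomerase of the retinal pigment epithelium, was lowest at 10 h (2424 and 2551), against 4565 and 4119 at 2 h (amplitude 0.34 ± 0.071, peak at 0.363 ± 0.793 h (SE), adjusted p = 0.034). Lrat, which makes its substrate, peaked at 16.6 h and Rdh12, a retinol dehydrogenase of photoreceptors, at 13.4 h. None of 10 genes of outer segment phagocytosis passed the test in limma (1 at an unadjusted p under 0.05, and 0 with time as 6 means). Beside 4.67% of all genes, 0 of 10 is no result about phagocytosis. Of 12 genes of the photoreceptor synapse 4 passed the test (33.3%). Rims2, which organises the active zone, had 2796 and 2826 at 2 h, 3068 and 3096 at 6 h and 5018 and 4938 at 14 h, and all 8 eyes from 10 h to 22 h were above the 4 earlier ones (peak at 15.4 h, adjusted p = 0.00303). Rims2, Lrat and Rdh12 kept their calls whichever eye was left out, and Rpe65 and Cacna1f in 6 of 12 cases each (adjusted p up to 0.105 and 0.0894). The calcium channel subunit Cacna1f peaked at 16.7 h, while the vesicle fusion genes Cplx3 and Stx3 peaked at 3.48 and 1.49 h.

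For the inner retina, genes from the lists of ON bipolar cells, Müller glia and neuropeptides were called. None were called from the lists of amacrine cells, ganglion cells and dopamine synthesis. Of 13 ON bipolar genes 3 were called (23.1%, beside 4.67% of all genes): Grm6, the glutamate receptor of these cells, peaked at 15.7 h, and Cabp5 and Pcp2 at 23.9 and 4.58 h. With time as 6 means 10 of these 13 were called, beside 14.4% of all genes, and the 12 h component described further on was called in 6, beside 6.34%. Müller glia had 2 of 9 (22.2%), and 5 with time as 6 means. They were the glutamate transporter Slc1a3 (1.41 h) and the water channel Aqp4 (3.33 h). Of 11 neuropeptide genes 3 were called (27.3%, and 5 with time as 6 means), Vip (16.2 h), Penk (14.1 h) and Npy (13.0 h), all in the light phase. Npy had 258 and 245 at 2 h, below the other 10 eyes, which lay between 334 and 435. Npy, Aqp4 and Vip kept their calls in 4, 4 and 2 of the 12 cases with 1 eye left out (adjusted p up to 0.169, 0.141 and 0.113). No gene was called among 11 of amacrine cells, 10 of ganglion cells and 11 of dopamine synthesis and handling (limma; 0, 1 and 0 at an unadjusted p under 0.05, and 2, 1 and 0 with time as 6 means). Beside 4.67% of all genes, a count of 0 in lists this short is no result about these cells or about dopamine synthesis. Th, the rate-limiting enzyme of dopamine synthesis, had 95.3 and 96.2 at 2 h, 105 and 79.9 at 6 h, 111 and 88.3 at 10 h, 75.2 and 96.7 at 14 h, 79.8 and 100.5 at 18 h and 108 and 88.0 at 22 h (adjusted p = 0.904), and its eyes at different times overlapped throughout.

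Among the few metabolic lists examined here, glycolysis had the largest share of rhythmic genes. Of 18 genes tested 14 (77.8%, beside 4.67% of all genes) had a 24 h rhythm, and all 14 peaked between 21.8 h and 2.79 h, in the dark. They covered glucose entry (Slc2a1, the GLUT1 transporter), phosphorylation (Hk2), the committed step (Pfkl and Pfkp), the middle and lower steps (Gpi1, Aldoa, Tpi1, Gapdh, Pgk1, Pgam1, Eno1, Eno2 and Pkm) and lactate formation (Ldha). Pfkl, the liver-type phosphofructokinase (chromosome 10, 77986947 to 78009807), had 13940 and 13900 at 2 h, 8601 and 9312 at 6 h, 7298 and 7438 at 10 h, 6873 and 7290 at 14 h, 7929 and 7458 at 18 h and 11530 and 10960 at 22 h (amplitude 0.48 ± 0.046, peak at 1.09 ± 0.365 h (SE), adjusted p = 1.4e-04). The eyes at 2 h were the highest, those at 22 h followed, and the 8 light-phase eyes lay below both. Hk2, a hexokinase of rods, had 10850 and 11310 at 2 h, 7123 and 6663 at 6 h, 6251 and 6519 at 10 h, 7048 and 8433 at 14 h, 8463 and 7292 at 18 h and 12360 and 11780 at 22 h (amplitude 0.44 ± 0.066, peak at 22.9 ± 0.577 h (SE), adjusted p = 0.00517), with its 4 dark eyes above the rest. Gapdh, which is often used as a reference gene, changed less, with 77780 and 78540 at 2 h and 57960 and 61080 at 14 h (amplitude 0.18, adjusted p = 0.00443). The reference genes Actb and Eif1ad were not called (adjusted p = 0.074 and 0.195), but with time as 6 means Actb was (adjusted p = 3.2e-04), with 10730 and 9961 at 2 h and 13870 and 14010 at 6 h. The 4 glycolysis genes that were not called were Hk1, Pfkm, Aldoc and Ldhb. With 1 eye left out, Eno2 and Ldha kept their calls in 6 of 12 cases each (adjusted p up to 0.114 and 0.0948). The count was 11 to 14 when each eye was left out in turn and 5 without both 2 h eyes.

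Several targets of PPAR alpha, a regulator of fatty acid oxidation, were highest in the light. Of 9 targets of this nuclear receptor 4 were called (44.4%, beside 4.67% of all genes), Plin2, Cpt1a, Fabp3 and Acadm, with peaks between 9.87 and 13.4 h. Acadm, the medium-chain acyl-CoA dehydrogenase, had 2457 and 2396 at 2 h, 2960 and 3191 at 6 h, 3907 and 4119 at 10 h, 3681 and 3892 at 14 h, 3666 and 3674 at 18 h and 3016 and 2967 at 22 h (amplitude 0.33 ± 0.038, peak at 13.4 ± 0.445 h (SE), adjusted p = 5.2e-04). All 6 eyes at 10, 14 and 18 h were above all others. Cpt1a, the gate of fatty acids into mitochondria, peaked at 13.2 ± 0.550 h (SE), with 4905 and 4714 at 2 h and 7228 and 7222 at 10 h. Among 8 hypoxia response genes 3 passed (37.5%), Bnip3 (23.9 h), Ankrd37 (20.4 h) and Egln3 (6.20 h). With 1 eye left out, Plin2 stayed called in 6 of 12 cases (adjusted p up to 0.099) and Ankrd37 in 2 (up to 0.127). Only Fdps of 19 cholesterol genes was called by the cosine (peak 14.7 h), but 13 of the 19 differed with time entered as 6 means (14.4% of all genes did), and of these 5 were highest at 6 h and 7 at 14 h. None of 74 nuclear genes of oxidative phosphorylation, of 39 proteasome genes or of 11 autophagy genes was called by limma (3, 0 and 2 at an unadjusted p under 0.05, and 0, 1 and 2 with time as 6 means), and of 82 ribosomal protein genes Rpl10a alone was. Beside 4.67% of all genes, 0 of 39 and 0 of 11 are no result about the proteasome or autophagy. The median amplitude of the oxidative phosphorylation genes was 0.049, against 0.11 for all genes. It was as low in other lists, with 0.050 for the proteasome and 0.057 for autophagy.

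Called genes of DNA replication peaked between 17.8 and 23.6 h (6 of 18, or 33.3%, beside 4.67% of all genes), in the evening and early night, and those of mitosis between 2.51 and 9.78 h (14 of 17, or 82.4%), in the hours that follow. Among the replication genes, Cdc6, which loads the replicative helicase, had 71.9 and 69.8 at 2 h, 38.1 and 47.1 at 6 h, 45.1 and 53.5 at 10 h, 70.3 and 69.2 at 14 h, 115 and 79.7 at 18 h and 119 and 108 at 22 h (amplitude 0.68 ± 0.096, peak at 20.1 ± 0.539 h (SE), adjusted p = 0.002). The helicase subunits Mcm3, Mcm5 and Mcm6 peaked within 19.0 to 20.2 h. Rrm2, the ribonucleotide reductase subunit, came later, at 23.6 h. Of the mitosis genes, Top2a, the topoisomerase that untangles sister chromatids, peaked at 3.14 h, Mki67, the proliferation marker, at 4.51 h, Ccnb1, the mitotic cyclin, at 6.09 h, Cdc20, which triggers anaphase, at 6.77 h and Aurka, a spindle kinase, at 7.46 h. Ccnb1 had 139 and 143 at 2 h, 128 and 158 at 6 h, 117 and 98.8 at 10 h, 70.3 and 81.4 at 14 h, 66.8 and 42.9 at 18 h and 58.6 and 51.6 at 22 h (amplitude 0.77 ± 0.11, peak at 6.09 ± 0.543 h (SE), adjusted p = 0.002). The 4 eyes at 2 and 6 h were the highest, and those at 18 and 22 h were among the lowest. Levels of mitosis genes were low, and the 2 eyes of a time could differ widely, as for Cenpf at 2 h (194 and 102) and at 18 h (78.9 and 36.8). The latest mitosis peak was that of Bub1b (9.78 h). Its call was kept in 5 of 12 cases with 1 eye left out (limma, adjusted p up to 0.119). The mitosis count was 10 to 14 when single eyes were left out and 7 without both 2 h eyes.

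**Figure D3:**
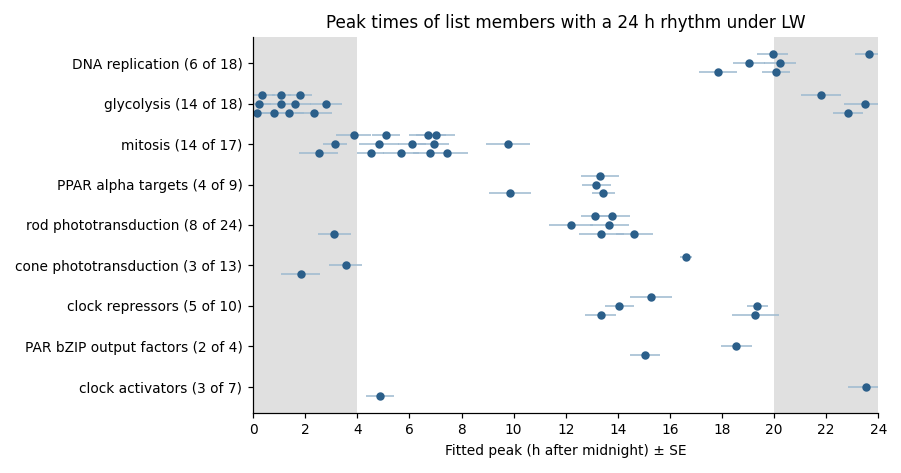
Fitted peak time in h after midnight (horizontal axis; bars are SE) of each gene with a 24 h rhythm under LW, in rows by gene list with the number called of the number tested; grey marks the hours nearest to the dark samples. Glycolysis peaked between 21.8 and 2.79 h, mitosis between 2.51 and 9.78 h and DNA replication between 17.8 and 23.6 h. Most called rod genes had fitted peaks around midday. A point is missing for 2 called members, which are counted but not shown.

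Outside the retina, 4 of 19 marker genes of the epithelium of cornea and conjunctiva passed the test (21.1%, beside 4.67% of all genes), all in the light phase: Cldn4 (10.5 h), which seals tight junctions, and the keratins Krt6a (12.8 h), Krt5 (14.5 h) and Krt15 (14.6 h). The summed level of the 19 markers was 317370 and 376840 at 2 h, 363620 and 401980 at 6 h and at least 396180 in every eye from 10 to 22 h. The eyes at 2 and 6 h overlapped, and both 2 h eyes lay below all 8 eyes from 10 h on. This sum's part in these 4 results was not tested. Cldn4 was called whichever eye was left out, and Krt5, Krt6a and Krt15 in 5, 7 and 3 of 12 cases (adjusted p up to 0.102, 0.0672 and 0.166). Angptl7, which is secreted in the corneal stroma and trabecular meshwork, peaked at 19.6 h (1 of 13 scleral and stromal genes), and Slc45a2, a melanosome transporter, at 0.710 h (1 of 8 melanin genes). In lists of this size 1 call is close to the 4.67% of all genes and no result about these tissues. No gene was called among 16 lens crystallins, 11 other lens fibre genes, 18 muscle genes, 13 of macrophages and microglia, 3 of red blood cells, 4 of liver and 5 of myelin, nor among 9 targets of the oxidative stress factor NRF2 and 2 cold-inducible RNA-binding genes. At an unadjusted p under 0.05 (limma) these 9 lists had 0, 1, 1, 0, 0, 1, 2, 2 and 0 genes in the same order, and with time as 6 means 0, 0, 0, 2, 0, 0, 1, 2 and 1 were called. A count of 0 in such short lists is no result about them either.

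Among called genes with a mean scaled count of at least 50, the 5 largest amplitudes peaked nearest 2 or 22 h. Ptpn20, a protein tyrosine phosphatase, had 161 and 177 at 2 h, 106 and 126 at 6 h, 18.6 and 17.4 at 10 h, 14.1 and 17.3 at 14 h, 22.3 and 30.6 at 18 h and 29.3 and 39.2 at 22 h, a 9.88-fold change from trough to peak in the fitted curve (amplitude 1.65 ± 0.21, peak at 2.83 ± 0.490 h (SE), adjusted p = 0.00138). Its 4 eyes at 2 and 6 h were separate from the other 8. Ppp1r3g, a subunit that steers protein phosphatase 1 to glycogen, followed, with 116 and 134 at 2 h, 128 and 111 at 22 h and 26.5 and 29.1 at 10 h (4.48-fold, adjusted p = 0.00297). Insl5, an insulin-like peptide, Slc3a1, a subunit of a cystine transporter, A3galt2, a glycosyltransferase, and the predicted genes Gm41793 and Gm19410 peaked nearest 2 h, with folds of 3.98, 3.94, 3.67, 3.91 and 3.79. Nearest 22 h stood Pclaf (3.10-fold), a partner of PCNA, Mss51 (2.56-fold), Mcm10 (2.54-fold), a replication factor, and G0s2 (2.51-fold), an inhibitor of fat breakdown, beside Cdc6.

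In the light phase, the largest amplitudes nearest 6 h were those of Adamts4, an aggrecan-cutting protease (amplitude 0.90, peak at 7.87 h), and of 5 genes of mitosis or cell division, Cenpf, Ccnb1, Nusap1, Ube2c and Kif18b. Nearest 10 h they were those of Loxl4, a lysyl oxidase (amplitude 0.70, peak at 10.8 h), Mmp3, the protease stromelysin (amplitude 0.66, peak at 12 h), Kprp, a protein of cornified cells (amplitude 0.68, peak at 11.8 h), BC027072, Sh2d2a and Rbbp8nl. With 1 eye left out, Kprp kept its call in 2 of 12 cases (adjusted p up to 0.136), Sh2d2a in 7 (up to 0.0835) and Kif18b in 7 (up to 0.0843). Nearest 14 h stood Pdzph1 (3.89-fold), Glmn (3.35-fold), Rgs20 (2.65-fold), a regulator of G protein signalling, Cyp2a5 (2.62-fold), Chst3 (2.44-fold), which sulfates chondroitin, and Lcn2 (2.42-fold), a siderophore-binding lipocalin. Pdzph1 had 1515 and 1506 at 2 h, 2290 and 2990 at 6 h, 6379 and 6680 at 10 h, 5736 and 6915 at 14 h, 6052 and 6256 at 18 h and 5423 and 5203 at 22 h. All 8 eyes from 10 to 22 h were above the 4 earlier ones, so the curve rose between 6 and 10 h and fell between 22 and 2 h, a shape for which the 24 h call was kept in 3 of 12 cases with 1 eye left out (adjusted p up to 0.12). Nearest 18 h were BB114814 (3.84-fold), 5430419D17Rik (2.90-fold), Arr3, Zan (2.23-fold), Uhrf1 (2.12-fold), which maintains DNA methylation, and Fmo1 (2.06-fold), a monooxygenase. The call of 5430419D17Rik was kept in 3 of 12 such cases (adjusted p up to 0.114).

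By p-value, Arr3, Cyp2a5, Hist1h1c, Fmo1, Bcl6, Pfkl, Per2 and Edn3 ranked in the top 10. Cyp2a5, a cytochrome P450 that hydroxylates coumarin, had 861 and 943 at 2 h, 1288 and 1016 at 6 h, 1936 and 1650 at 10 h, 2570 and 2529 at 14 h, 1892 and 1980 at 18 h and 1271 and 1522 at 22 h (amplitude 0.70 ± 0.051, peak at 14.6 ± 0.278 h (SE), adjusted p = 4.1e-06). Hist1h1c, a linker histone, rose to 1138 and 1181 at 10 h, against 567 and 521 at 22 h (peak 10.2 ± 0.313 h, adjusted p = 1.3e-05). Bcl6, a transcriptional repressor, peaked at 22.0 h and Edn3, which encodes endothelin 3, at 18.9 h. In each of the genes named here the 2 eyes at the highest time lay above both eyes at the lowest time. The genes were chosen by p in these same eyes, so this separation is a description and no further support.

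Many daily profiles did not follow a cosine. When a 12 h component was added to the 24 h curve, it passed the test in 1128 genes (6.34% of 17796), and 151 of these were among the 831. A 12 h component here describes a profile with a second high or a sharp step within the day. Time entered as 6 means was called in 2568 genes (14.4%), including 763 of the 831. The component was called in 13 of 18 immediate early genes, 13 of 19 heat shock chaperone genes and 10 of 13 genes of endoplasmic reticulum chaperones and their regulators, while the 24 h test in limma called 0, 1 and 0 of them. At an unadjusted p under 0.05 the 24 h test held 4 of the immediate early genes and 1 of the endoplasmic reticulum genes, and time as 6 means called 14 and 11. For the 18 immediate early genes the 24 h adjusted p-values lay at 0.0781 and above, with Nr4a1 the lowest.

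Of the 13 immediate early genes, which cells switch on within minutes of a stimulus, 8 were highest at 22 h and 4 at 10 h. Nr4a1, an orphan nuclear receptor, had 2218 and 2283 at 2 h, 785 and 669.8 at 6 h, 858 and 924 at 10 h, 744 and 880.4 at 14 h, 956 and 844 at 18 h and 3737 and 4742 at 22 h (adjusted p = 1.0e-04 for the 12 h component). The 22 h eyes were highest, the 2 h eyes were next, and the 8 eyes in the light did not exceed 956. Of the 13 heat shock genes 9 were highest at 10 h and 3 at 22 h, and of the 10 endoplasmic reticulum genes 4 were highest at 10 h and 6 at 22 h, with 9 lowest at 6 h. Hspa5, the main chaperone of the endoplasmic reticulum (BiP), had 7901 and 7942 at 2 h, 6081 and 6687 at 6 h, 11650 and 10160 at 10 h, 8562 and 9505 at 14 h, 7889 and 7955 at 18 h and 10960 and 10200 at 22 h (adjusted p = 3.1e-05 for the 12 h component). Its 10 h and 22 h eyes were the highest 4 and its 6 h eyes the lowest pair. Hsp90aa1 was the exception among the heat shock genes, with a 24 h rhythm as well (peak 1.69 h, adjusted p = 0.0124).

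The 5 smallest p-values for the 12 h component among genes with a mean of at least 50 were those of Slc16a3, Vgf, Nr2e3, Pde8b and Hspa5. Slc16a3, the lactate exporter MCT4, had 1685 and 1773 at 2 h, 708 and 653 at 6 h, 824 and 839 at 10 h, 966 and 865 at 14 h, 865 and 869 at 18 h and 1730 and 1828 at 22 h, so that its 4 dark eyes were about level and above all 8 others (adjusted p = 6.3e-06). Nr2e3, the nuclear receptor that holds the rod programme, was highest at 6 h (11000 and 12610) and lowest in the dark (5064 and 4928 at 22 h; adjusted p = 2.0e-05). Vgf, a neuropeptide precursor, stepped up between the eyes at 6 h (388 and 395) and those at 10 h (827 and 846). Pde8b, which breaks down cAMP, had its 4 highest eyes at 2 and 6 h (2306 and 2171, and 2145 and 2405), with the others at or below 1515. The count of 1128 moved to 375 and 366 without 1 or the other eye at 10 h, to 409 without the first eye at 22 h, and to 231 with limma voom weights.

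**Figure D4:**
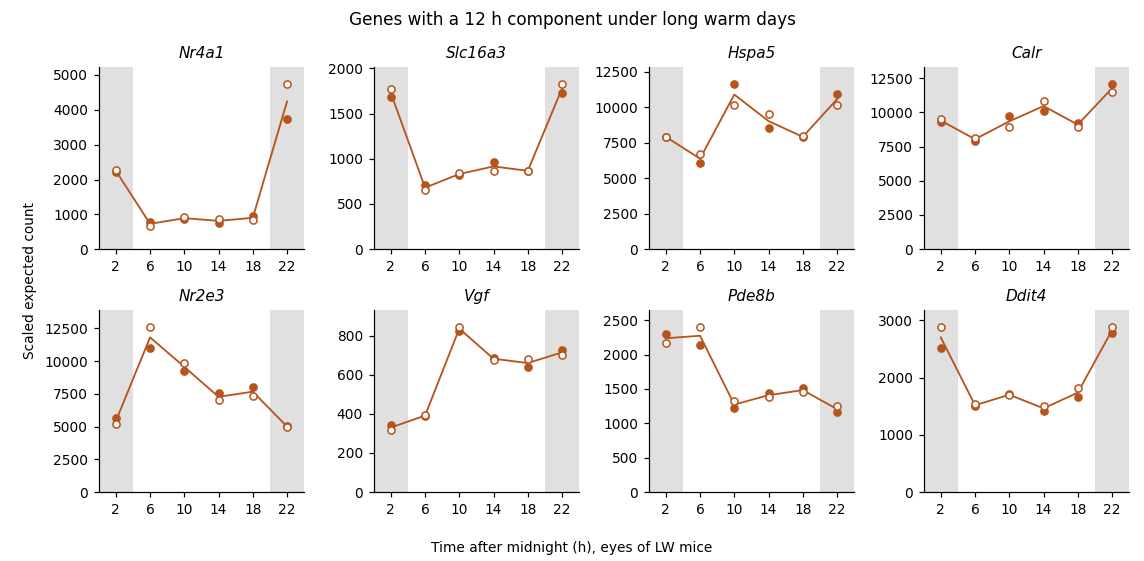
Scaled expected count (vertical axes, from 0) against time after midnight in h for 8 genes with a 12 h component in LW eyes; filled and open points are the 2 eyes of each time, the line joins their means, and grey marks the hours nearest to the dark samples. Nr4a1 rose at 22 h (3737 and 4742), Slc16a3 was high in both dark samples, and Hspa5 and Calr were high at 22 h and again in the light.

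Fitted peaks were mostly later under LW than under SC. A cosine under SC was called in 1650 of 17845 genes (9.25%). Of the 831 LW genes 500 were among them, which is 60.2% of the LW genes and 30.3% of the SC genes. In these 500 the fitted peak was later under LW in 457 and earlier in 43, with a median of 1.84 h (quartiles 1.06 and 2.92 h). The difference in the cosine and sine terms, tested over all 24 eyes in 1 fit, was called in 32 of 18231 genes (0.176%), while 1734 had an unadjusted p under 0.05. Of the 32 genes 31 peaked later under LW and 1, Ubxn11, peaked earlier. Ubxn11, Gpr141 and, further on, Pde6c are named after their values were seen. Gpr141, among the 31, had a mean scaled count of only 2.48 under LW and 1.47 under SC. The number of calls moved with single libraries, to 14 without the second LW eye at 2 h, 20 without the first at 18 h, 19 without the first SC eye at 6 h, 90 without the second SC eye at 10 h, 21 without either SC eye at 22 h, 18 without the 2 SC libraries with the most Alb, 5 with limma voom weights and 0 with the mean of each pair of eyes (limma).

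Clock genes were among those that differed. Per2 peaked at 19.4 h under LW against 12.8 h under SC, a shift of 6.53 h (adjusted p = 1.1e-05 from limma). Under SC it had 1034 and 988 at 2 h, 1369 and 1304 at 6 h, 1482 and 1638 at 10 h, 1564 and 1735 at 14 h, 1434 and 1361 at 18 h and 1125 and 1230 at 22 h, so that the highest eyes under LW were those at 18 and 22 h and the highest under SC those at 10 and 14 h. Tef peaked at 18.6 h under LW against 13.2 h under SC (adjusted p = 0.0104), Nr1d1 at 13.3 h under LW against 8.37 h under SC (0.021) and Ciart at 15.3 h under LW against 10.7 h under SC (0.0354). The glucocorticoid-induced Tsc22d3 shifted likewise (5 h). The tight junction gene Cldn4 peaked at 10.5 h under LW against 5.75 h under SC (adjusted p = 0.00787) and Spint1, a protease inhibitor of epithelia, at 11.9 h under LW against 6.30 h under SC (0.0131). Of 19 genes of corneal and conjunctival epithelium Cldn4 was the 1 called for the difference, and of 13 scleral and stromal genes 0 were (limma; 5 and 2 at an unadjusted p under 0.05). Slc7a1, the cationic amino acid transporter (6.01 h), Dgat2, an enzyme of triglyceride synthesis (4.84 h), and Nxpe4 (7.48 h) were also later under LW.

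Among photoreceptor and glycolysis genes this test called 1 of 13 cone genes, the cone phosphodiesterase Pde6c, and none of 24 rod and 18 glycolysis genes (limma). With 0.176% of all genes called, a count of 0 in lists of this size is no result about them. At an unadjusted p under 0.05 were 4 cone, 4 rod and 3 glycolysis genes, beside 1734 of 18231 in all. Arr3 peaked at 16.6 h under LW against 17.3 h under SC, Drd4 at 1.15 h under LW against 23.8 h under SC, Sag at 14.6 h under LW against 13.9 h under SC and Pfkl at 1.09 h under LW against 23.9 h under SC (adjusted p = 0.498, 0.555, 0.924 and 0.48). Drd4 under SC had 6042 and 6295 at 2 h, 3863 and 4395 at 6 h, 2085 and 2018 at 10 h, 1938 and 2019 at 14 h, 4389 and 4950 at 18 h and 6358 and 6615 at 22 h. Its eyes at the dark times of SC (2, 6, 18 and 22 h) all lay above its lit eyes at 10 and 14 h. Those at 2 and 22 h were again the highest. The 6 and 18 h eyes were dark under SC and lit under LW. Of 17 mitosis genes 1, Kif20a, differed, with a peak at 6.92 h under LW against 2.90 h under SC.

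**Figure D5:**
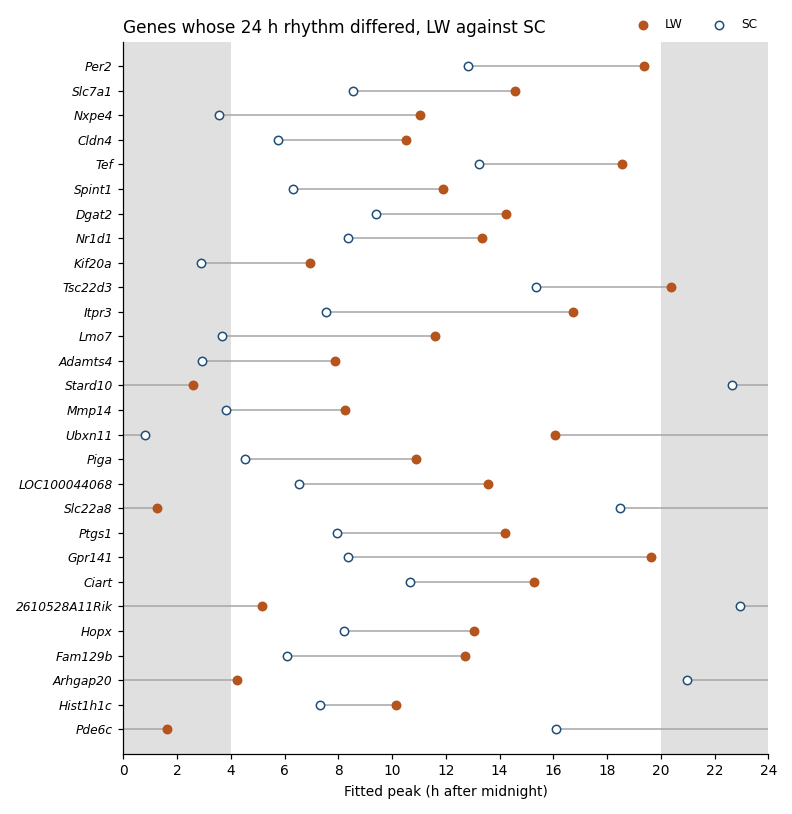
Fitted peak in h after midnight (horizontal axis) under LW (filled) and SC (open) of 28 of the 32 genes whose 24 h rhythm differed between the conditions, in order of p from the top; lines join the 2 peaks along the shorter way round the clock, and grey marks the hours nearest to the dark samples of LW. All shown but Ubxn11 peaked later under LW, Per2 by 6.53 h.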

How the data were processed

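Whole eyes were profiled by RNA sequencing (TruSeq stranded mRNA libraries, paired 100-base reads). The authors filtered reads with SOAPnuke, aligned them with HISAT2 2.0.4 to GRCm38.p6 and estimated gene counts with RSEM, and these deposited expected counts were the input here. The 43565 cells marked as having no value were read as 0, and 8.90 to 10.3% of the 19018 genes were so marked in a library. Counts were scaled by library total and TMM factors, and genes at 1 or more in at least 2 LW eyes were kept.

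A cosine and a sine of 24 h were fitted to log2(scaled count + 1) with limma 3.58.1 in R 4.3.3 (trend and robust options), and both terms were tested together by an F test with Benjamini-Hochberg adjustment at 0.05. A 12 h pair of terms, time as 6 means, and the difference LW minus SC (1 fit over 24 eyes) were tested likewise, in code tested on simulated data. The peak classes are 4 h wide and centred on the sampling times. The 2 eyes of every group differed beyond counting noise. Replicate numbers did not pair eyes (correlations of −0.0509 to 0.0431 over 15 pairs of times), so no block was used, although the library total was higher in replicate 1 than in replicate 2 at all 6 LW times (24656407 to 28859071 against 19543401 to 25458673). RSEM divides reads shared by near-identical genes, so such genes are uncertain.

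Genes and lists were chosen with earlier results of these data known. Named genes are all clock list members, the 6 largest amplitudes per peak class (mean of at least 50), the 10 smallest p-values, up to 4 members of each other list by p, opsins, Th, Gapdh, Actb and Eif1ad, the 10 smallest p-values of the difference and the 5 smallest of the 12 h component. Other list members, such as Sag and Guca1b, were named after their values were seen. Alternatives covered scaling, pseudocount, filter, voom weights, the replicate block, means of the eyes, left-out eyes and the samples in the fit. Depth limits precision through counting error, which the fit includes; the median SE of a called amplitude was 0.0472. A few genes and their results are not reported here. Gene IDs of 18891 genes matched the RefSeq annotation.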

Additional observations from a re-analysis of the deposited data

Results flagged for a closer look

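The 24 h rhythm of 32 genes differed between LW and SC by the test of the difference itself (limma, adjusted p under 0.05; 0.176% of 18231 genes), and the shift of the peak, LW minus SC, is given for 28 of them. Clock genes and genes that follow the clock were later under LW: Per2 (6.529 h), Tef (5.295 h), Nr1d1 (4.967 h), Ciart (4.611 h) and Tsc22d3 (5 h). Also later were Cldn4 (4.76 h), Spint1 (5.594 h), Hopx (4.824 h), Adamts4 (4.954 h), Mmp14 (4.411 h), Slc7a1 (6.014 h), Nxpe4 (7.484 h), Dgat2 (4.842 h), Kif20a (4.03 h), Itpr3 (9.184 h), Lmo7 (7.922 h), Stard10 (3.97 h), Piga (6.382 h), LOC100044068 (7.039 h), Slc22a8 (6.755 h), Ptgs1 (6.236 h), 2610528A11Rik (6.183 h), Fam129b (6.622 h), Arhgap20 (7.243 h) and Hist1h1c (2.846 h). The cone phosphodiesterase gene Pde6c (9.52 h) was called under SC and not under LW, so its fitted LW peak is uncertain. Gpr141 (11.28 h) was near the floor of detection, and with a shift of close to 12 h its direction turned to −11.58 h without both eyes at 10 h and to −11.98 h without the 2 SC libraries with the most Alb. Ubxn11 was the gene with an earlier fitted peak under LW (−8.711 h); it was called under LW and not under SC. Those outside the rule for named genes are listed after their values were seen. Photoperiod and temperature cannot be told apart in these shifts.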

How the results depend on the processing

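Of 831 genes with a 24 h rhythm under LW, 828 were shared with median-of-ratios scaling and 662 of the 669 with the replicate block, where replicate numbers pair no eyes. The count was 536 with limma voom weights, 8 with the mean of the 2 eyes of each time, 2568 with time as 6 means and 1564 in 1 fit over all 24 eyes. It ranged between 425 and 1015 when each LW eye was left out and was 158 without both 2 h eyes. Genes that peaked nearest 22 or 2 h made up 37.67% of calls, 29.98% with library totals alone, 12.5% with means of the eyes, 32.94% to 40.89% without 1 eye, and 33.54%, 44.24%, 41.63% and 43.43% without both eyes at 2, 6, 18 and 22 h. The median amplitude of 0.2581 became 0.3591 with voom weights, 0.6261 with means, 0.252 to 0.3054 without 1 eye, and 0.3661 and 0.3249 without both eyes at 2 and 14 h.

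The 32 differences LW minus SC became 5 with voom weights, 0 with means of the eyes (limma), 14 to 42 without 1 LW eye and 19 to 90 without 1 SC eye. Without both eyes at 2, 10, 18 and 22 h they numbered 3, 341, 2 and 49, and without the 2 SC libraries with the most Alb 18. The direction of 1 of them, Gpr141, turned to −11.58 h without both eyes at 10 h and to −11.98 h without those 2 libraries. The 1650 calls under SC became 3722 with voom weights, 430 with means, 1198 to 1773 without 1 eye, and 925, 985 and 989 without both eyes at 2, 18 and 22 h. The 1128 calls of the 12 h component became 231 with voom weights, 366 to 1464 without 1 eye, and 530, 96 and 357 without both eyes at 6, 10 and 22 h. The causes were not tested.

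Of 262 genes (those chosen by rule and every called list member), 138 were called, and 85 of these were called whichever LW eye was left out. No called peak turned by more than 6 h, and the largest move was 1.976 h (both 6 h eyes left out). The call was kept in 108 with voom weights, 123 with the replicate block, 8 with means of the eyes and 56 without both 2 h eyes. The 2 count models that had been planned were not run, because cells without a number make the table unsuitable for them. With 6 times, 2 eyes at each and no repeat of the day, a 24 h rhythm means a pattern over a single day, and depth limits genes of low level most.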
